A study of Caenorhabditis elegans with 2 samples.

Results

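The cuticle collagen genes of C. elegans were read for binding of LET-607, a transcription factor of the CREB3 family, a family of leucine-zipper proteins anchored in the endoplasmic reticulum (ER) until they are cut free. The genes were taken by name from the Ensembl annotation of WBcel235 (ce11 coordinates). They comprised every protein-coding gene called col- with a number, 156 genes, and the collagen genes named for a body-shape phenotype, of which 20 of 21 symbols were found (ram-4 was not matched). This gave 176 of 19985 protein-coding genes, and no peak value entered the choice. The name alone also takes in col-99, which encodes a transmembrane collagen.

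The worm's cuticle is an extracellular coat that the hypodermis builds anew at every moult, mostly from small collagens. Each collagen chain enters the ER, where its prolines are hydroxylated, its cysteines are paired and it folds into a trimer, and it then leaves in coated vesicles to be cut and cross-linked outside the cell. Loss of single collagens gives worms that are dumpy, roll, are squat or long, or have a blistered cuticle, and the genes dpy, rol, sqt, lon and bli carry those names.

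The assay was ChIP-seq, which sequences the DNA that comes down with a protein. Whole hermaphrodites of the transgenic strain YL529 were taken as young adults, 67 h past the arrest of starved L1 larvae that set them in step. They stably expressed LET-607 with GFP and FLAG fused to its C-terminus, and chromatin was sheared by sonication and precipitated with an antibody against GFP. There was 1 group of 2 biological replicates, so no comparison between conditions exists. The labels do not name the promoter that drives the tagged gene, and in whole animals strong binding in few cells and weak binding in many cannot be told apart. Peak lists carry no expression values, so the labelled stage and tissue could not be checked against marker genes.

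The lists on build ce11 held 26463 relaxed peaks in replicate 1, 22592 in replicate 2 and 26789 from the pooled replicates. Relaxed lists are made loosely and hold background as well as peaks. The strict list, kept by its reproducibility between replicates (IDR), held 2372 peaks. Each peak has a signal, given by the authors on a scale they do not state and read here only within its list. It ran from 78.2 to 13028 in the IDR list and from 18.2 to 13028 in the pooled list. No read counts were analysed here, so sequencing depth is unknown. A gene was called bound if an IDR summit lay from 1000 bp upstream to 200 bp downstream of its 5′ end, here called the promoter window. The let-607 gene itself had no summit in that window in any of the 4 lists.

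Few cuticle collagen genes were bound, and none of those named for a phenotype. Bound members numbered 4 of 176 (2.27%, exact 95% interval 0.623 to 5.72), beside 7.76% of all protein-coding genes. In order of chromosome they were col-63, then col-38 with col-71, then col-185, none of them named for a phenotype. Of the 20 genes with such a name 0 were bound, which allows a share of up to 15% (3 counts of 20). By chromosome the counts were too small to rank. Chromosome II had 2 of 32 bound (6.25%) beside 6.52% of all genes there. Chromosome IV held the most members, 45, of which 0 were bound (exact upper limit 7.87%) beside 7.47% of all genes there. Intervals cover counting error only, and neighbouring genes can share a peak, so genes are not independent.

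The sequence under the bound collagens' summits is shown because, in the 3 printed, it lacks the CREB-type strings TGACGT and GACGTG. Both strings stand under some summits of secretory genes. Within 50 bp of all nuclear IDR summits they were found at only 8.3% and 7.11%. Most IDR summits thus lack them, and their absence from these 3 is not a trait of collagens. Each sequence is the 101 bases centred on an IDR summit (RefSeq sequence of WBcel235), written on the strand of the gene. Capitals in sar-1 and sec-31 mark the string TGACGT, read on the other strand, with the bases of a longer CREB-type form that adjoin it. Capitals in col-185 mark bases of an annotated tRNA gene. The sequences of sar-1 and sec-31, genes of the vesicle coat that carries collagen out of the ER, were chosen because they hold the site. No sequence is shown for col-63, and whether its summit holds a string is not given here.
col-38 (chrII:8569480-8569580, minus strand): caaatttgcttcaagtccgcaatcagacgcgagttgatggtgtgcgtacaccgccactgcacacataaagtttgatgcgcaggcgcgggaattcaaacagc
col-71 (chrII:3502786-3502886, minus strand): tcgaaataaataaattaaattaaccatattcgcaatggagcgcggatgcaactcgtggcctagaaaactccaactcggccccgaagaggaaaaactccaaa
col-185 (chrX:13511883-13511983, minus strand): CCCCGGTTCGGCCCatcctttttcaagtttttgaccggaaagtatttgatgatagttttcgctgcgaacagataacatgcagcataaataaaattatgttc
sar-1 (chrIV:4513597-4513697, minus strand): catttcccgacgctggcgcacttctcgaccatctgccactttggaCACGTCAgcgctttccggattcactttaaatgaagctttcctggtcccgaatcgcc
sec-31 (chrIV:11371797-11371897, minus strand): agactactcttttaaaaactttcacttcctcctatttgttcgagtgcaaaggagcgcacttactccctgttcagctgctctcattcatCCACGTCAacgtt

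Every bound collagen had another gene or feature at or near its summit. How often this holds at the bound genes as a whole was not counted, so it is not a trait shown to be particular to collagens. The peak with the highest signal among them (217.7, rank 434 of the IDR list; II, 8569431 to 8569632) had its summit at −442 bp from the 5′ end of col-38. It lay 397 bp upstream of rpl-5, a gene of the large ribosomal subunit, and within exons of the noncoding RNA genes F54C9.16 and F54C9.17. The summit at col-71 (signal 124.9, rank 1150) lay at −266 bp from that gene and 132 bp upstream of Y49F6B.2, which was therefore closer. That at col-63 (signal 103.4, rank 1566) lay 642 bp upstream, in an exon of ceh-8, a homeobox gene, and in an exon of the noncoding RNA gene ZK265.11. At col-185 (signal 99.3, rank 1657) it lay 836 bp upstream and 37 bp from a tRNA gene. When each summit was given only to the nearest 5′ end, col-63 and col-185 remained bound, and the same pair remained when only summits with a single gene in reach were counted.

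All 4 bound members had a peak in each replicate's own list. The signal at col-38 was 135.5 in replicate 1 and 87.7 in replicate 2, where it ranked 356 and 582. For col-71 the signals were 77.1 and 48.9, for col-63 57.1 and 47.4, and for col-185 44.9 and 54.4. The scale of each list is its own, so ranks are the closer comparison, and col-185 ranked 2399 in replicate 1 and 1360 in replicate 2. When only the 2372 strongest peaks of replicate 1 were used, 3 members were bound and col-185 was not among them. With those of replicate 2 there were 5, the added gene being col-124.

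**Figure D1:**
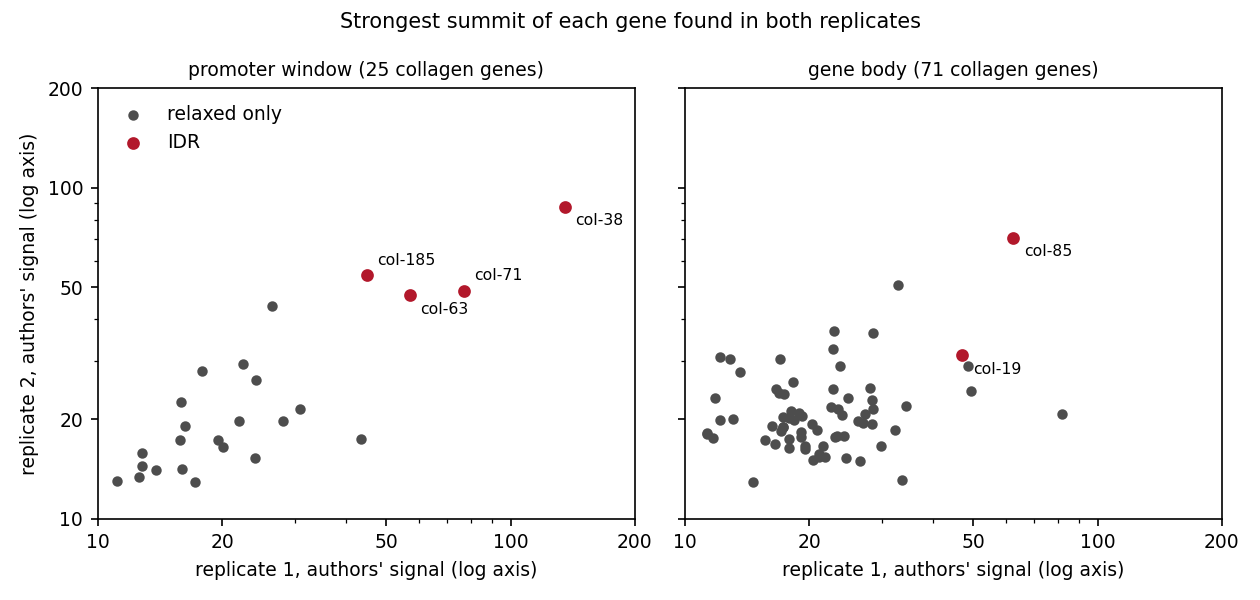
Signal in replicate 1 (x, log axis) and replicate 2 (y, log axis) of the strongest summit in the promoter window (left, 25 genes) and in the gene body beyond 200 bp (right, 71 genes), for collagen genes with a summit in both replicates. Each point is 1 gene and red points are genes with an IDR summit there. The strongest summit was taken in each replicate by itself and can lie at another position. In the window col-38 stands highest in both replicates at 135.5 and 87.7.

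The relaxed lists showed the same order as the strict list. A pooled relaxed summit lay in the window of 47 of 176 collagens (26.7%, 20.3 to 33.9), beside 36.4% of all genes. In replicate 1 there were 44 (25%) beside 35.8% of all genes, and in replicate 2 there were 41 (23.3%) beside 32.8%. Both replicates had a summit at 25 members (14.2%, 9.41 to 20.3), beside 23.0% of all genes. Of these 25 members, 16 (64.0%) had summits of the 2 replicates within 100 bp of each other, and of all genes with a summit in both 71.2% had. A total of 114 members had no summit in the window in any list.

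Where a collagen window held a relaxed peak, it was seldom among the strict ones. Of the 47 members with a pooled summit, 4 (8.51%, 2.37 to 20.4) had an IDR summit, beside 21.3% of all genes with a pooled summit. The strongest pooled summit per window had a median signal of 28.4 in collagens and 37.1 over all genes, while the median over the whole pooled list was 28.1. A pooled summit in the upper part of that list, above its median signal, lay in the window of 24 members (13.6%), beside 24.7% of all genes. The median collagen stood at percentile 32.7 among genes with a pooled summit. Neuropeptide and insulin-like peptide genes, another family of small secreted products, had 3 of 140 bound (2.14%) and 39 (27.9%) with a pooled relaxed summit. Nuclear hormone receptor genes had 16 of 269 bound (5.95%) and 88 (32.7%) with a pooled relaxed summit. No test was made between the families, and 2.14% lies within the collagens' interval.

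The member just below the IDR threshold was col-124, with a pooled signal of 65.4 (rank 3063). Its summit lay 189 bp upstream, in an intron of qns-1, and its signals were 26.4 in replicate 1 and 44.0 in replicate 2. Next came col-74 (56.5), col-184 (54.1), col-98 (50.3) and col-42 (47.3), each found in both replicates. The summits at col-184 and col-42 lay 65 and 18 bp inside the genes, in coding exons, and that at col-98 lay 109 bp upstream in intergenic sequence. These 5 genes held ranks from 3063 to 4951 of the 26789 pooled peaks. The last of the 10 strongest unbound members were bli-1, bli-6, col-8, bli-2 and col-46.

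Among collagens with a phenotypic name, relaxed peaks in the window lay at 9 of 20 (45.0%, 23.1 to 68.5), beside 36.4% of all genes. Both replicates had one at 4 of 20 (5.73 to 43.7), beside 23.0%. Both intervals include the share of all genes. All 3 blister genes were among the 4. The gene bli-1, a collagen of the struts that join the cuticle layers in the adult, had signals of 28.1 in replicate 1 and 19.7 in replicate 2, with a pooled summit 862 bp upstream in a coding exon of col-80, and the strongest summit of replicate 2 lay elsewhere, at −319 bp. Its strut partner bli-2 had 15.9 and 22.5, with summits 86 and 117 bp downstream of the 5′ end. At bli-6 the signals were 20.1 and 16.5, but the strongest summits lay at −370 and −892 bp, so the replicates marked different positions. The pooled summit of bli-6 was 249 bp upstream of hrpf-2, nearer than to bli-6.

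The dumpy collagens that form the furrows between the cuticle's rings had few peaks in their windows, 1 of 6 (0.421 to 64.1) beside 36.4% of all genes, an interval that includes that share. Of dpy-2, dpy-3, dpy-7, dpy-8, dpy-9 and dpy-10, only dpy-9 had one in its window, with a signal of 16.7 in replicate 1 and none in replicate 2. Of the other dumpy collagens, dpy-17 had a summit in both replicates (24.0 and 15.3) at 71 and 68 bp downstream of its 5′ end. The genes dpy-4 (13.0) and dpy-14 (24.0) had one in replicate 2 and none in replicate 1, and dpy-5 and dpy-13 had none. Among the roller, squat and long genes, sqt-2 and rol-6 (signal 24.8) had a summit in replicate 1 alone and rol-8 (13.8) in replicate 2 alone. The genes sqt-1, sqt-3 and lon-3 had none. The replicate signals of the genes with a phenotypic name ran from 13.0 to 28.1, while the medians over all peaks were 17.3 in replicate 1 and 18.2 in replicate 2.

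Within the body of the collagen genes the order was the opposite for relaxed peaks, which were frequent there. Counting summits more than 200 bp downstream of the 5′ end and inside the gene model, 112 of 176 members (63.6%, 56.1 to 70.7) had a pooled relaxed summit, beside 36.6% of all genes. There were 103 (58.5%) in replicate 1 beside 36.6% of all genes, and 97 (55.1%) in replicate 2 beside 35.0%. In both replicates there were 71 (40.3%) beside 23.7%. Collagen genes are short, with a median length of 1220 bp against 2026 bp for all genes, and per length the pooled density was 68.6 summits per 100 kb of gene body against 25.7. Among genes of at most 2000 bp, a limit chosen after the values were seen, 95 of 151 collagens (62.9%) had one, beside 19.7% of all such genes. A body summit above the median signal of the pooled list was found in 78 of 176 members (44.3%), beside 21.3% of all genes. Any pooled body summit lay in 21.4% of the neuropeptide and insulin-like peptide genes and 36.8% of the nuclear hormone receptor genes. In lists described below it lay in 9 of 11 for hydroxylation and folding, 8 of 10 for secretion and 9 of 12 regulators. It lay in 5 of 10 for processing and cross-linking and 5 of 20 other cuticle proteins. A high share is thus not particular to collagens, but per length each of these sets had fewer summits.

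**Figure D2:**
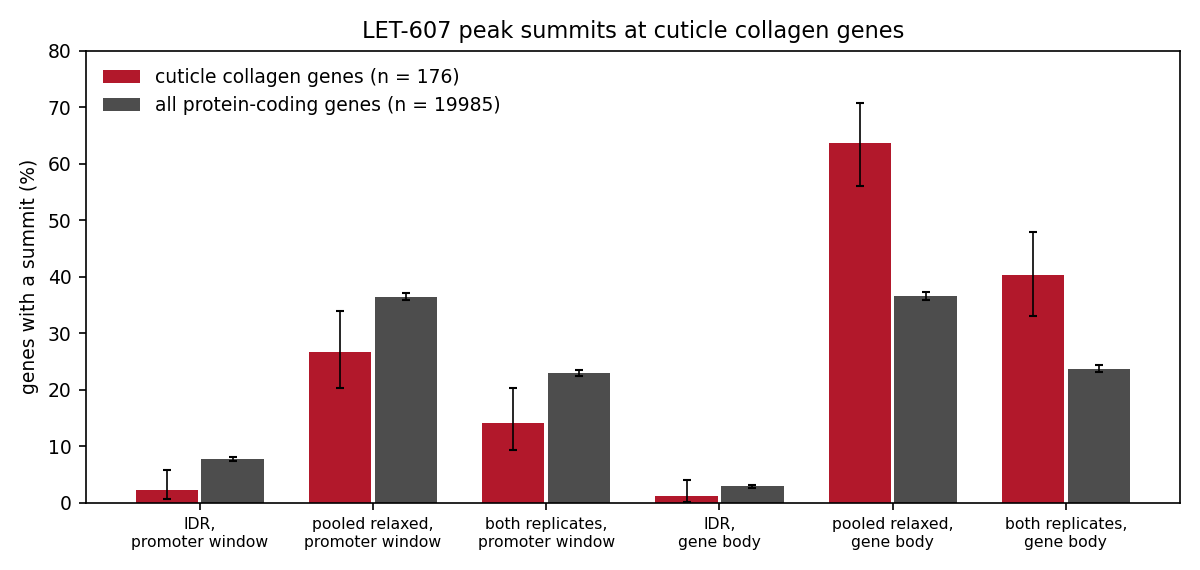
Share of genes (y, %) with a LET-607 summit, for the 176 cuticle collagens (red) and all 19985 protein-coding genes (grey), in the promoter window and in the gene body. Error bars are exact 95% intervals of the share. Collagens lie lower in the window (pooled 26.7% beside 36.4%) and higher in the body for relaxed summits (63.6% beside 36.6%). For IDR summits in the body the shares are 1.14%, from 2 genes, and 2.91%, with no match of gene length. Among genes of at most 2000 bp, not drawn, they are 1.32% and 0.76%.

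In most members with a body summit the strongest lay in a coding exon. Counted by distance alone, relaxed summits were densest well downstream of the 5′ end. That count is not limited to the gene model, so summits past the end of a short gene are in it. From 600 to 800 bp downstream of the 5′ end there were 22.7 pooled summits per 100 collagen genes, against 5.16 per 100 over all genes. In the 200 bp before the 5′ end the order was reversed, with 3.41 per 100 collagens against 11.8. Of the 112 members with a body summit, the strongest lay in a coding exon in 100, in another exon in 2 and in an intron in 10. The like share over all genes, and the share of collagen bodies that is coding, were not counted, so this is a description only. Of all summits in collagen bodies the median place was 62.8% along the gene, against 56.9% over all genes. Where both replicates had a body summit, 41 of 71 members (57.7%) had them within 100 bp of each other, as had 2363 of 4729 among all genes.

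**Figure D3:**
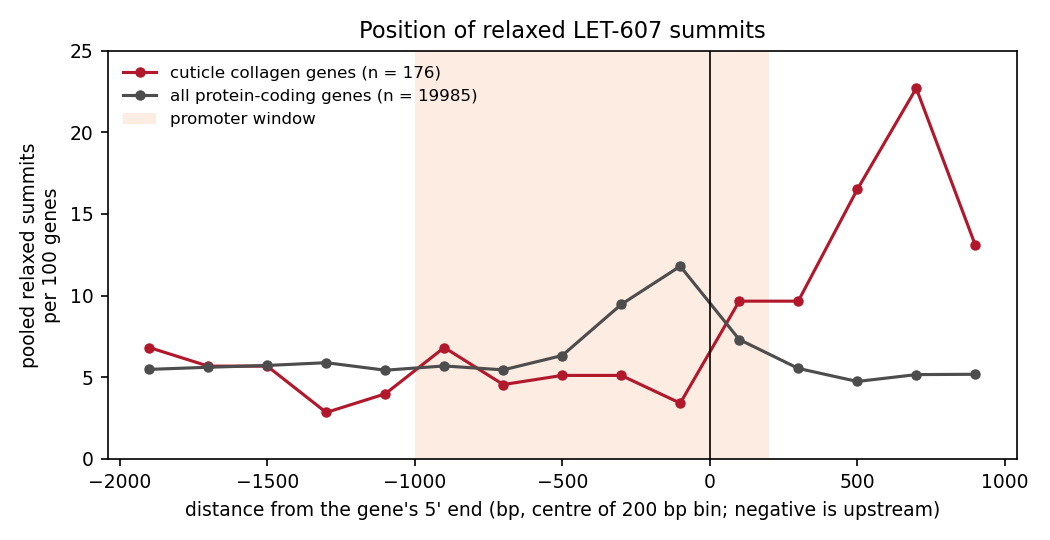
Pooled relaxed summits per 100 genes (y) in bins of 200 bp by distance from the 5′ end (x, bp), for the 176 cuticle collagens (red) and all 19985 protein-coding genes (grey); the shaded part is the promoter window. The curve of all genes is highest just upstream of the 5′ end at 11.8, while that of the collagens is highest from 600 to 800 bp downstream at 22.7.

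The summits in collagen bodies were of middling signal and rich in G and C. Their median pooled signal was 30.9 against 26.7 for body summits of all genes and 28.1 over the whole pooled list, and 2 of the 155 were IDR summits. The median G+C content of the 101 bases at these summits was 57.4% (quartiles 50.5 and 62.4), against 35.6% at all nuclear pooled summits and 44.6% at all nuclear IDR summits. Both of the latter sets include summits outside gene bodies, and G+C at the body summits of all genes was not measured. Collagen gene models are themselves G+C rich, with a median of 49.1% against 36.4% for all genes. Members with and without a body summit had medians of 49.2% and 48.9%. The part of base composition in the count of body summits was not tested.

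An IDR summit lay in the body of 2 members, col-85 and col-19 (1.14%, 0.138 to 4.04), beside 2.91% of all genes. Among genes of at most 2000 bp the share was 1.32% (0.161 to 4.7) beside 0.76% of all such genes. Both intervals include the share of all genes. The gene col-19, an adult-specific collagen of the hypodermis, had its summit 476 bp downstream of the 5′ end in a coding exon, with a pooled signal of 78.7 (rank 2351 of 2372, just inside the threshold). Its signals were 47.0 in replicate 1 (rank 2221) and 31.2 in replicate 2 (rank 3500), with strongest summits 422 and 485 bp inside the gene. At col-85 the signals were higher, 62.5 in replicate 1 and 70.7 in replicate 2, with a pooled value of 131.1 (rank 1056). Its summit lay 356 bp inside the gene, in an intron, and 2 bp from a tRNA gene. The members next in order, col-122 (73.0), col-140 (72.7) and col-72 (72.6), stood just outside the IDR list. The sequences at the summits of col-19 and col-85 are shown because the first is collagen coding sequence throughout and the other, in an intron, holds none, with capitals for the bases of the tRNA gene.
col-19 (chrX:422133-422233, plus strand): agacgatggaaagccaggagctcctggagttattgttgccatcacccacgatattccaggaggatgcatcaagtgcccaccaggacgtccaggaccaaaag
col-85 (chrII:12494689-12494789, minus strand): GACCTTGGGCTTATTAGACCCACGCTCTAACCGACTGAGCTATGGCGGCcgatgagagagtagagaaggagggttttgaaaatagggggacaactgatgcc

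Gene by gene the body summits were spread over many members. Of the 176 members 64 had no pooled body summit, 74 had 1, 32 had 2 and 6 had 3. Of those with a phenotypic name, 14 of 20 had at least 1 (45.7 to 88.1), beside 36.6% of all genes. They included dpy-17 (pooled signal 51.7), dpy-5 (44.1) and rol-8 (36.8). Among the furrow genes dpy-7 had a body summit in both replicates (24.3 and 17.8), dpy-2, dpy-8 and dpy-10 had one in replicate 1 alone, and dpy-3 and dpy-9 had none in either. The gene col-153 had a high body signal in replicate 1 (82.1, 1956 bp downstream, close to the gene's end) and 20.8 in replicate 2 at another position. A body summit without a window summit was found in 74 members, both in 38, a window summit alone in 9 and neither in 55. In the same order the counts over all 19985 genes were 3372, 3946, 3336 and 9331. Some peaks entered both the window and the body counts. The strongest pooled window summits of bli-1, col-39, col-44 and col-46 were also body summits of the neighbouring col-80, col-79, col-9 and col-47. The 3 collagens of basement membranes, which share the glycine repeat but not the cuticle, each had pooled body summits. There were 2 in emb-9 (7366 bp of body), 7 in let-2 (8543 bp) and 4 in cle-1 (18411 bp). Together this was 37.9 per 100 kb, beside 25.7 over all genes, with let-2 giving most of the summits. In replicate 2 emb-9 had 0 body summits.

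The counts of CREB-type strings under collagen summits were small. The string TGACGT was searched on both strands, and so was GACGTG, which can overlap it. A control string, TGCAGT, was searched in the same way. Within 50 bp of the 59 pooled summits in collagen windows TGACGT was found at 1 (1.69%), beside 4.53% of the pooled summits in the windows of all genes. Within 50 bp of the 155 body summits it was found at 3 (1.94%), beside 3.73% of those in the bodies of all genes. Over all nuclear summits the share was 4.03% in the pooled list and 8.30% in the IDR list, so it differs between the lists themselves. For GACGTG the shares were 1.69% in collagen windows beside 3.76%, and 5.81% in collagen bodies beside 2.85%. Longer forms of TGACGT were searched too. The 1 window summit with TGACGT held TGACGTCA, 1.69% beside 0.751% in the windows of all genes. TGACGTGG was at 0 of the 59 window summits, beside 0.598%. Of the 155 body summits 0 held either form, beside 0.656% for TGACGTCA and 0.622% for TGACGTGG. The control stood at 5.08% in collagen windows beside 4.48%, and at 3.87% in collagen bodies beside 3.79%. In the 300 bases from 250 before to 50 after the gene start, TGACGT was in 14 of 176 collagen promoters (7.95%), in 10.3% of all promoters and in 13.2% of those of bound genes. The collagens col-71, col-185 and col-98 were among the 14. The control was in 11.9% of collagen promoters and 9.54% of all. The string AGGTCA, a site bound by nuclear receptors such as the moulting factor NHR-23, was in 14.8% of collagen promoters, 8.27% of all and 6.78% of those of bound genes. It was at 0 of the 59 window summits and at 3.87% of the body summits, beside 2.33% and 2.25% of those of all genes. A last string, TGATAA, was in 30.1% of collagen promoters and 30.2% of all. It was at 13.6% of the collagen window summits beside 13.1% of those of all genes. Of the 155 body summits it was at 1 (0.645%), beside 10.7% of those of all genes. These counts describe letters in a window and say nothing of binding by any factor.

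Genes listed here as acting on collagen inside the ER and on its way out were often bound. These gene lists were chosen with earlier results of these data known, so their shares are descriptions only. Of 11 genes for hydroxylation and folding, 5 were bound (45.5%, 16.7 to 76.6), and of 10 for secretion 8 were (exact 95% interval 44.4 to 97.5), beside 7.76% of all genes. The catalytic subunit genes of prolyl hydroxylation, dpy-18 and phy-2, had no summit in the promoter window in any list, nor had let-268, a lysyl hydroxylase gene. Their partner pdi-2, the subunit that is also a protein disulfide isomerase, had a signal of 564.5 with its summit 30 bp upstream of the 5′ end. Its signals were 312.3 in replicate 1 and 256.2 in replicate 2, at ranks 100 and 106. The isomerase genes pdi-1 (2838), pdi-3 (2627) and pdi-6 (503.1) were bound too, while dpy-11, a membrane thioredoxin needed for cuticle shape, stood at 78.7, near the foot of the IDR list. The peaks of pdi-1 and pdi-3 were shared with C14B1.2 and ubql-1.

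The bound secretion genes fell into a high and a low range of signal. The high ones were sec-24.1 (signal 1515; 832.7 in replicate 1 and 684.1 in replicate 2), sar-1 (1237; 647.6 and 592.5) and sec-23 (932.9; 472.6 and 461.9), followed by tfg-1 (605.6), which organizes ER exit sites. The peak of sec-23 was shared with dcs-1 and that of tfg-1 with tdpt-1. These 4 lay above col-38, the highest collagen window at 217.7, and the other 4 lay below it. Among those, the coat genes sec-31 (98.4), npp-20 (83.0) and sec-24.2 (79.1) stood below the weakest bound collagen, col-185 at 99.3. The summit of sec-24.2 lay at −957 bp, in a peak shared with ZC518.8. Its signals were 49.8 in replicate 1 and 18.9 in replicate 2, where it ranked 10420. The gene tmem-131, which recruits collagen for export, had a signal of 112.0 at a peak shared with smcr-8, whereas tmem-39 had relaxed window summits only, at 15.7 and 16.7 in the replicates. The lists were chosen with earlier results known and overlap the ER genes that lead the whole peak list.

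For the steps after secretion, 0 genes were bound, and the lists are too short to set that apart from the share of all genes. Of 10 genes for procollagen processing and cross-linking, 0 were bound, which allows up to 30.0% (3 counts of 10), beside 7.76% of all genes. They include bli-4 and dpy-31, proteases that trim procollagen, and bli-3, an oxidase that makes the peroxide for cross-links. In the promoter window nas-36 alone had a pooled relaxed summit (22.1), 1 of 10 beside 36.4% of all genes. Replicate 1 had window summits at 4 of 10, bli-4, bli-3, skpo-1 and nas-36, beside 35.8%. Of 20 other cuticle and moulting proteins, among them the cuticlins cut-1 to cut-6 and the apical matrix genes noah-1 and noah-2, 0 were bound, which allows up to 15%. Relaxed pooled summits lay in the windows of 5 of the 20 (8.66 to 49.1), beside 36.4% of all genes, with cut-5 highest at 54.2. Of 12 regulators of moulting and the hypodermis, 2 were bound (16.7%, 2.09 to 48.4, which includes 7.76%), myrf-1 (132.6) and lin-28 (82.8), and lin-14 lay just below the threshold at 70.3. The factors nhr-25, lin-29, elt-1, bed-3 and lin-42 had no summit in the promoter window in any list.

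**Figure D4:**
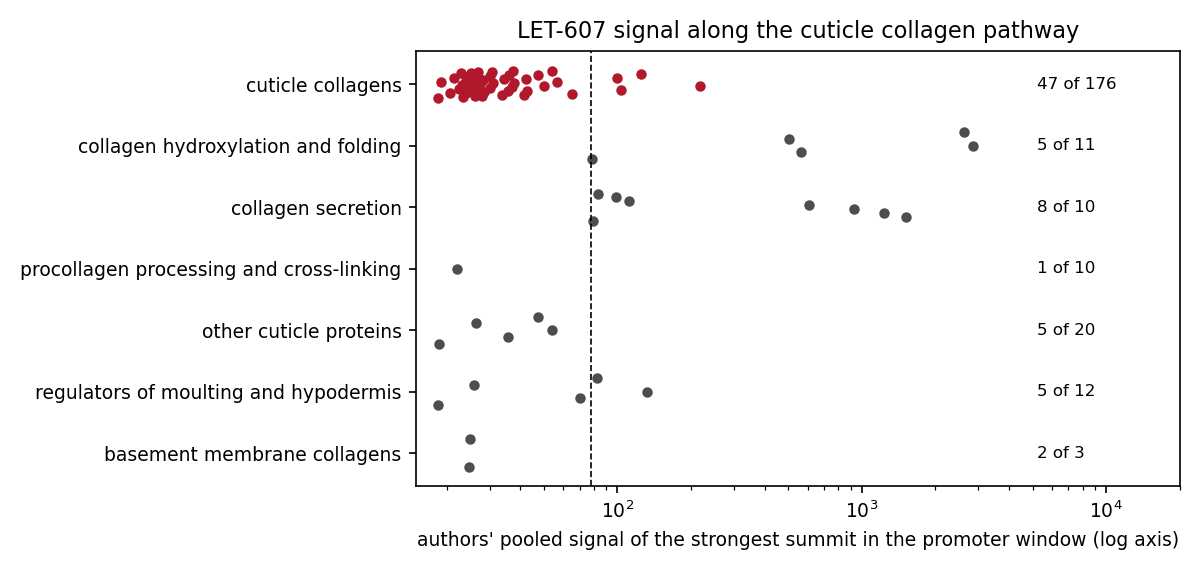
Pooled signal of the strongest summit in the promoter window (x, log axis, the authors' units) for genes of each step of the collagen pathway, 1 point per gene, with the number of genes that have a summit written at the right. The dashed line is the lowest signal of the IDR list, 78.2. Genes for ER folding and secretion reach 2838 and 1515, the cuticle collagens 217.7.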

How the data were processed

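ChIP-seq peak lists of 1 group of 2 replicates were used, with replicate numbers from the labels. Per the submitters' file descriptions, the authors called relaxed peaks on each replicate and on pooled alignments against 1 control file, and thresholded them by IDR. The deposited signal (column 7) has no stated scale. The deposited −log10 q-value (column 9) was read but supports no result. Which aligner and peak caller made them is "not given in the sources used here", and 4 lists on ce10 were not used, since no ce10 annotation was at hand. The reference was checked against ce11: 99.8% of nuclear coding transcripts began with ATG in the RefSeq sequence, and no peak passed a chromosome end.

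Genes and 5′ ends came from Ensembl release 115. The members, lists and search strings were chosen with earlier results of these data known, and the gene body count after its values were seen. Genes named in the text were every bound member, the 10 strongest unbound members, members with a phenotypic name, members with an IDR summit in the body, and up to 4 bound genes per list by signal. Other genes named, such as col-122, col-140, col-72, col-153, tmem-131, lin-14, cut-5 and those without a peak, were added after their values were seen. Shares carry 95% limits by the exact Clopper-Pearson method, for counting error alone, and a count of 0 is given the share that 3 counts would make, unless an exact limit is named. The string shares over all pooled summits, in windows and in bodies, were added after the data were seen. No test was made, since the design has 1 group. Placement in the promoter window was tested on simulated summits. Of those planted inside it 200 of 200 were found, and of those just outside it 0 were wrongly counted. This checks the code alone, and placement in gene bodies was not simulated. Calculations used Python 3.11.15 with numpy 2.4.6, pandas 2.3.3, scipy 1.17.1 and matplotlib 3.10.9.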

Additional observations from a re-analysis of the deposited data

How the results depend on the processing

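The collagens' share in the promoter window was below that of all genes under each of the 11 other settings for bound genes, the 9 for pooled relaxed peaks and the 8 for peaks in both replicates, and their share with a body summit was above it under each of 7, all chosen after the data were seen. The share bound was 1.14% with 500 bp upstream (beside 6.24% of all genes) and with the nearest 5′ end only (beside 5.95%). It was also 1.14% in the stronger part of the IDR list, with signal above the median (beside 4.25%). Without genes that share a summit it was 1.15% (beside 4.28%). It was 2.84% without replicate 1 (beside 7.44%) and 1.70% without replicate 2 (beside 7.79%). Leaving out summits near tRNA, snoRNA or snRNA genes, added after the data were seen, gave 1.70% beside 7.31%. The pooled relaxed share was 13.6% among peaks above the median signal (beside 24.7% of all genes). From a single replicate it was 23.3% (beside 32.8%) and 25% (beside 35.8%). The share in both replicates was 7.39% with 500 bp upstream (beside 16.5% of all genes) and 23.9% with 2000 bp (beside 32.0%). For summits within 100 bp it was 9.09% (beside 16.3%) and for any overlap of the peak 22.2% (beside 27.3%). Above the median signal it was 6.25% (beside 15.3%). The median percentile of collagen windows was 36.9 with 2000 bp, 38 for windows that overlap no other, 29.0 without the genes named for a phenotype and 31.2 to 34.8 from a single replicate. The body share from a single replicate was 55.1% (beside 35.0% of all genes) and 58.5% (beside 36.6%). The cause of these shifts was not tested. With few bound members, a single gene moves the share bound by a large part of its value, and without read counts a weak peak cannot be told from background.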
